A study of Mus musculus with 36 samples.

Results

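The genes described here are 38 genes of the endoplasmic reticulum (ER) that fold, modify, translocate, export or degrade proteins, or that sense misfolded protein. They were chosen by name from the annotation of the array: the probe had to carry the gene's name and to be well above background on at least 6 of 36 arrays, and the brightest such probe stood for the gene. All 38 passed, out of 22919 genes tested, and all 38 were well above background on all 36 arrays. The rule itself used no measured difference between genotypes or times, but the 38 genes were chosen with earlier results of these data known.

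Proteins that the hepatocyte secretes, or places in membranes, enter the ER through the translocon, fold with the help of chaperones, lectins and disulfide isomerases, and leave in transport vesicles, while misfolded chains are sent back to the cytosol for degradation. When unfolded protein accumulates, the sensors IRE1 (gene Ern1), PERK (Eif2ak3) and ATF6 start the unfolded protein response, in which XBP1 and ATF6 raise the transcription of chaperone and degradation genes. The liver secretes most plasma proteins, and its load of secretory protein changes with feeding, which in mice falls mainly in the dark hours.

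Total liver RNA of 36 male mice was measured on 1-colour Agilent arrays, 1 array for each mouse. Of these, 18 mice carried a tamoxifen-inducible, hepatocyte-specific deletion of the insulin receptor gene Insr (label IRLKO; IRhep-/- in the design text, here the knockout) and 18 were their controls (IRLWT; IRhep+/+). The deletion removes the fourth exon between LoxP sites, through a Cre recombinase driven by the transthyretin promoter, on C57BL/6J stock. Mice were 11 weeks old, ate a standard chow freely and were killed 8, 12 or 16 h after lights-on (ZT8, ZT12 and ZT16, with lights off at ZT12), with 6 mice in each of the 6 groups. When tamoxifen was given, and whether the controls received it or carried Cre, is not given in the sources used here. The comparisons ask how loss of the hepatocyte insulin receptor changed the liver's transcripts late in the light phase, at lights off and early in the dark phase.

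Levels are log2 signals relative to each array's 75th percentile, so that 0 is the signal of that percentile, and differences are log2 ratios from a limma fit with 6 mice in each group, with the standard error (SE) of the fit. A gene is called where its p-value, adjusted by Benjamini-Hochberg over all 22919 genes, is under 0.05. Insr itself was at 29.3% of the control level at ZT8 (log2 ratio -1.77, adjusted p = 1.2e-11), 27.2% at ZT12 and 31.8% at ZT16, with no overlap between genotypes at any of the 3 times. Whether its probe reads the deleted exon was not determined. Between 53.7% and 63.1% of the spots of an array were well above background, and no spot was saturated.

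1 mouse stood apart the most for these genes. Knockout ZT16 replicate 5 had the highest value of its group for 33 of the 38 genes (86.8%), against 21.7% of all genes. To a lesser degree, knockout ZT8 replicate 3 was highest for 18 genes (47.4%, against 21.7% of all genes) and lowest for 7. Knockout ZT12 replicate 6 was highest for 15 (39.5%, against 20%) and replicate 5 of that group for 12. Other mice were low. Control ZT12 replicate 2 was lowest for 22 genes (57.9%, against 21.7% of all genes), and knockout ZT12 replicate 1 for 17 (44.7%, against 17.4%). Without knockout ZT16 replicate 5 the count of called genes at ZT16 went from 18 to 24, and calls that are gained or lost without replicate 5 at ZT16, replicate 3 at ZT8 or replicate 6 at ZT12 of the knockout are given below. Those arrays were high ones of the knockout, so leaving them out tends to widen a lower level in the knockout. With any single array left out, the ZT16 count ran from 14 to 24.

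All 10 hepatocyte markers tested were well above background on every array, and 3, 4 and 4 of them were lower and 1, 3 and 2 higher in the knockout at ZT8, ZT12 and ZT16. Among these, Ttr was at -1.12, -1.02 and -0.97, Tdo2 at -0.99, -0.81 and -0.84 and Alb at -0.41, -0.35 and -0.39. Hpd went the other way, at 0.65, 0.57 and 0.49, and Tat was at 0.30, 0.55 and 0.12. Cps1 was at 0.25, 0.36 and 0.02, and Fgb at -0.05, 0.25 and 0.52. Some markers of other cells differed between genotypes as well. Of all genes 16.7%, 19.6% and 19.9% were higher and 18.7%, 22.7% and 20% lower at the 3 times. All 5 tested markers of B and plasma cells, which are rich in ER chaperones, were higher in the knockout at ZT12 and at ZT16, and 3 of 5 at ZT8. These markers were dim, with mean log2 levels of -3.39 for Mzb1 and -1.53 for Jchain, and 3 of the 8 listed were not tested. Their mean log2 level ran from -2.41 to -2.14 in ZT8 controls and from -1.88 to -0.22 in ZT8 knockouts, from -2.98 to -2.04 and -2.24 to -0.80 at ZT12, and from -3.26 to -2.56 and -2.14 to -0.65 at ZT16. Of 6 endothelial markers, 0, 5 and 4 were higher in the knockout at ZT8, ZT12 and ZT16, and of 6 macrophage markers 1, 4 and 1. The macrophage counts at ZT8 and ZT16 were near the shares of all genes. Of 7 stellate cell markers 0, 3 and 3 were higher, and of 5 red cell markers 0, 3 and 3. Another red cell marker was lower at each time, and Alas2 was at -3.50, -2.81 and -1.77. Of 3 tested T cell markers 2 were higher at each time, and 1 was lower at ZT12. Of 5 bile duct markers 1 was lower at ZT12 and 1 higher at ZT16. Of 5 tested markers of the exocrine pancreas, another tissue rich in ER chaperones, 3 were lower in the knockout at each time (Cela1, Ctrb1 and Amy2a5) and Cela2a was higher. The part of these cells in the differences below was not tested. In total liver RNA, fewer cells of a type and less RNA in each cell cannot be told apart.

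Many promoters of these genes are known to carry the ER stress response element (ERSE), a CCAAT box and the letters CCACG with any 9 bases between them, at which NF-Y and ATF6 or XBP1 bind. The RefSeq promoter table (build GRCm38.p6, 250 bases before to 50 bases after the start of transcription) held 31 of the 38 genes. Searched on both strands, the ERSE was found in 10 of these 31 and in 37 of all 27025 genes with a promoter in the table (0.137%). The shorter ERSE-II (ATTGG, 1 base, CCACG) was found in 2 of the 31 and in 12 of all genes (0.0444%). The letters CCACG alone, which every ERSE and ERSE-II contains, were found in 26 of the 31 and in 35.5% of all genes. The genes were chosen for their place in this response, so the share of promoters with an element is a description of the list. The stretches below show the element of 9 genes with an ERSE and of the 2 with an ERSE-II, because the genotype differences are set against them later. The other gene with an ERSE, Hsp90b1, held 2 of them, which are not printed. Each is read 5′ to 3′ on the strand on which the element reads forward, with the element in capitals.
Hspa5 (chr2:34772005-34772063): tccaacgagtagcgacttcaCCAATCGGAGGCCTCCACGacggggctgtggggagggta
Creld2 (chr15:88819500-88819558): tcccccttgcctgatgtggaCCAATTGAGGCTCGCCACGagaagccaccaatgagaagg
Calr (chr8:84847055-84847113): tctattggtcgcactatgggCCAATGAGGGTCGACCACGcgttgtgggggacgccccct
Pdia6 (chr12:17266471-17266529): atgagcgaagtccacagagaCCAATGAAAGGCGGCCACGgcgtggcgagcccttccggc
Ero1lb (chr13:12565662-12565720): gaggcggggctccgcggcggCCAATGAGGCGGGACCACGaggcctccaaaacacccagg
Syvn1 (chr19:6046512-6046570): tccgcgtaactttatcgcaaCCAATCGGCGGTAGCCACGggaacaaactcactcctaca
Derl3 (chr10:75893222-75893280): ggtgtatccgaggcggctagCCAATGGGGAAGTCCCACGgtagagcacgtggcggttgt
Canx (chr11:50325780-50325838): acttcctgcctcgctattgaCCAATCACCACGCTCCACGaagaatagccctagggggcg
Dnajc3 (chr14:118937807-118937865): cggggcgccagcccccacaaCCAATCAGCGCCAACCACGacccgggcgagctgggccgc
Herpud1 (chr8:94386357-94386407): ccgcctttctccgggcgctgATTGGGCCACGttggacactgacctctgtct
Dnajb11 (chr16:22857843-22857871): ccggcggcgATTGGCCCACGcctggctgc
The elements of Hspa5, Syvn1 and Herpud1 began 65, 44 and 52 bases before the start of transcription, and that of Dnajb11 lay just after it. Those of Creld2, Calr, Ero1lb and Derl3 read on the strand opposite to the gene.

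Sdf2l1, which had one of the largest genotype differences, held neither element. Its 250 bases before the start (chr16:17132384-17132633, minus strand) are shown because they hold CCACG 3 times on the opposite strand, in capitals as CGTGG, with no CCAAT at the spacing of the ERSE.
Sdf2l1: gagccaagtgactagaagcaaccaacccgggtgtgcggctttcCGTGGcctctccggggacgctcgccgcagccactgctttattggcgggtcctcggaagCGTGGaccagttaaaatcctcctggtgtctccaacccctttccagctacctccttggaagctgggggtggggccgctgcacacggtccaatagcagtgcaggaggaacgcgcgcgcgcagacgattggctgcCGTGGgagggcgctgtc

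Most of these genes had ratios below 0 in the knockout liver at each time, and fewer were called lower. At ZT8, 21 of the 38 genes were lower and 1 was higher in the knockout, where 18.7% of all genes tested were lower and 16.7% higher. At ZT12, 23 were lower and 3 higher, against 22.7% and 19.6% of all genes, and at ZT16, 16 were lower and 2 higher, against 20% and 19.9%. The median log2 ratio of the 38 genes took the values -0.40, -0.38 and -0.30 in order of time, against 0.01, -0.02 and 0.00 over all genes. Values below 0 were found for 35, 30 and 30 of the 38 genes. The 6 knockout mice did not overlap the 6 controls in 14, 12 and 8 of the 38 genes in order of time, where 15.5%, 21.4% and 19.2% of all genes did not overlap. The ZT16 count was near the share of all genes. Without knockout ZT16 replicate 5, 22 genes were lower at ZT16. Without knockout ZT8 replicate 3 the count at ZT8 was 21 lower, and without knockout ZT12 replicate 6 that at ZT12 was 23 lower.

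Over the 3 times, 29 genes were called lower at least once, 3 were called higher at least once and 6 were never called. The shares of all genes called at least once, or never, were not taken. These 3 counts therefore describe the list only. The 11 genes lower at all 3 times were Dnajb11, Calr, P4hb, Pdia3, Pdia6, Ero1lb, Herpud1, Sel1l, Edem1, Derl2 and Ssr2, while 10.6% of all genes were. Pdia5 was the single gene higher at all 3 times, against 8.91% of all genes. Dnajb9, Ero1l, Atf6, Eif2ak3, Xbp1 and Sec61a1 were never called.

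**Figure D1:**
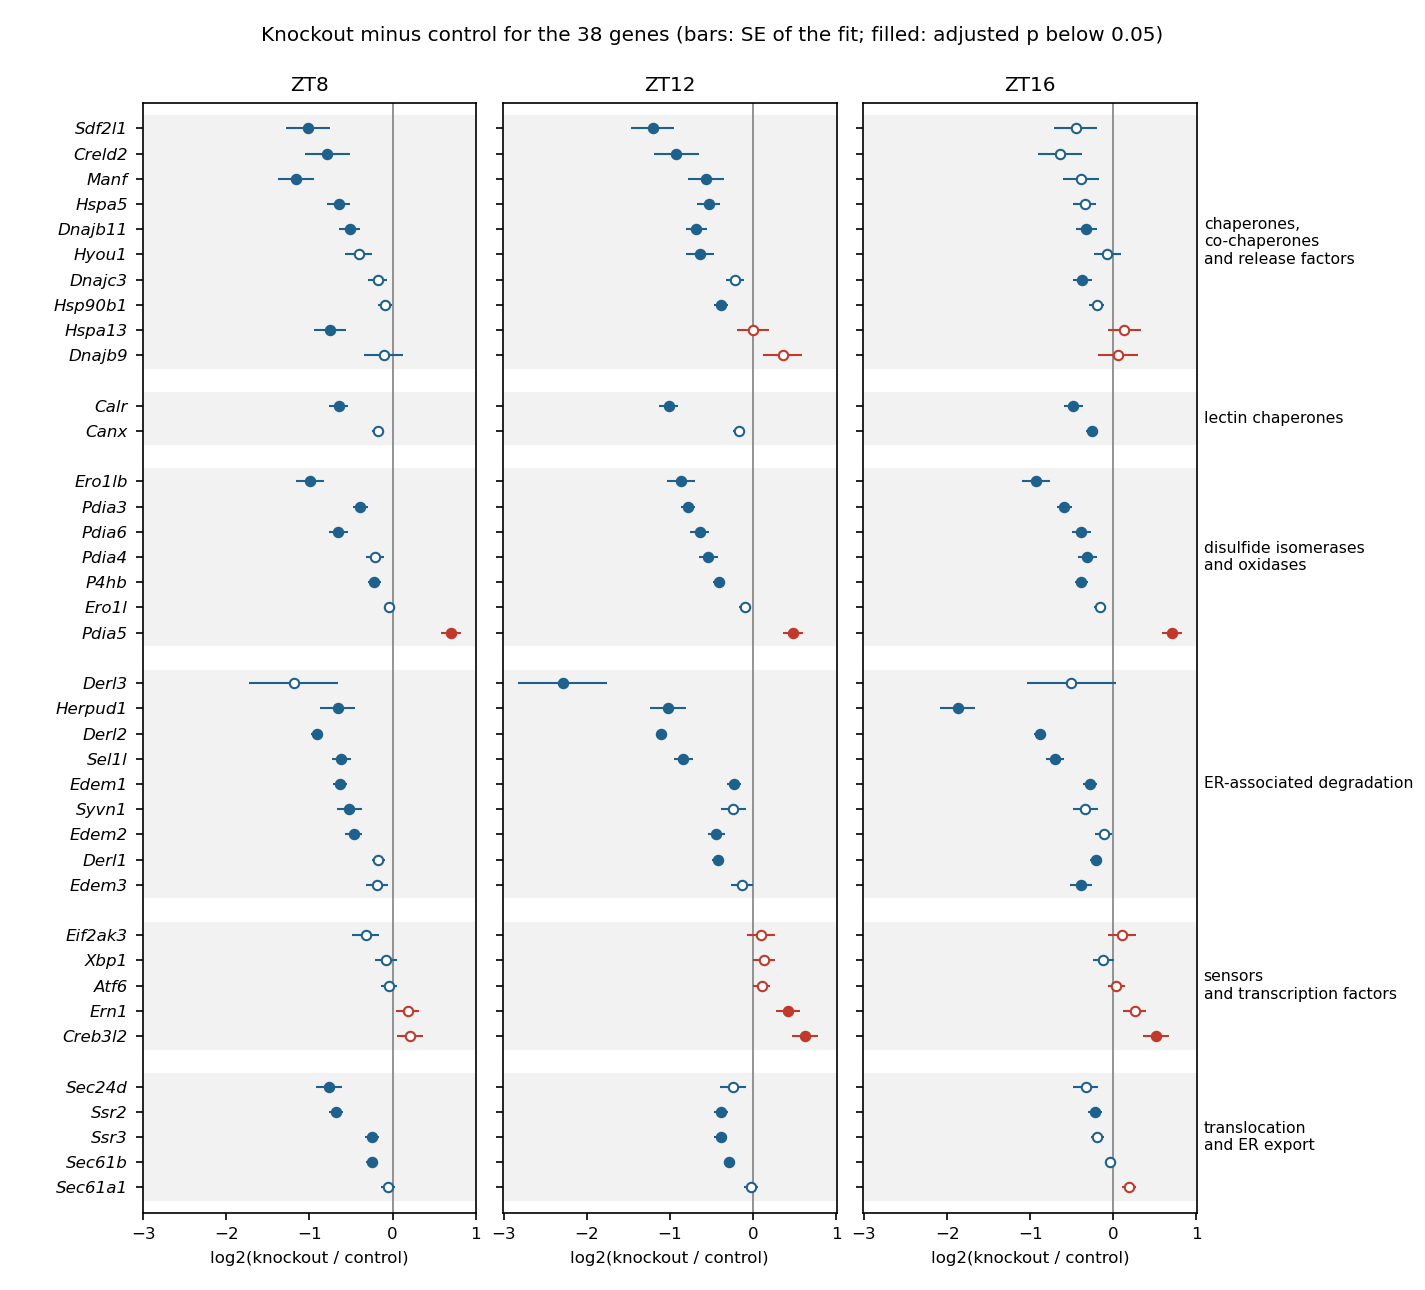
The log2 ratio of knockout over control (horizontal axis) for each of the 38 genes, ordered by role, at ZT8, ZT12 and ZT16, with bars for the SE of the fit over 6 mice in each group and filled points where the adjusted p was under 0.05. Points lie left of 0 for 35, 30 and 30 of the 38 genes, while Pdia5, Creb3l2 and Ern1 lie to the right at all 3 times.

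Among the 10 chaperones, co-chaperones and release factors, 6 were lower at ZT8, 7 at ZT12 and 2 at ZT16, and none was higher. Hspa5 encodes BiP, the Hsp70 of the ER lumen that also holds the sensors inactive. It is shown array by array because of this role, a choice made after its values were seen. Its level ran from 6.64 to 7.04 (median 6.77) in ZT8 controls and from 5.81 to 6.68 (median 6.15) in ZT8 knockouts, so that the groups overlapped only through knockout replicate 3. Hspa5 was at 63.8% of control at ZT8 (log2 ratio -0.65 ± 0.14 SE, adjusted p = 0.000565) and at 69.1% at ZT12 (-0.53 ± 0.14, adjusted p = 0.00303). At ZT16 the ratio was -0.34 ± 0.14 with adjusted p = 0.0516, and -0.42 with adjusted p = 0.0235 without knockout replicate 5.

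Sdf2l1, Creld2 and Manf, soluble ER proteins that rise strongly in the unfolded protein response, had the largest mean absolute ratios over the 3 times in this group. Sdf2l1, a partner of the ER's J-domain proteins, ran from 1.42 to 1.98 (median 1.55) in ZT8 controls and from 0.17 to 1.28 (median 0.55) in ZT8 knockouts, with no overlap. At ZT12 its control values ran from 1.71 to 3.33 (median 2.53) and its knockout values from 0.52 to 2.32 (median 1.19), and at ZT16 from 2.92 to 3.85 (median 3.54) and 2.73 to 3.49 (median 2.83). The genotypes thus overlapped at ZT12 and ZT16, where the spread among mice was wide. Sdf2l1 was at 49.5% of control at ZT8 (-1.01 ± 0.26, adjusted p = 0.00306) and 43.3% at ZT12 (-1.21 ± 0.26, adjusted p = 0.000449). Its ratio of -0.45 ± 0.26 at ZT16 did not pass (adjusted p = 0.172).

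Manf, a secreted ER protein that binds BiP, ran from 3.19 to 3.89 (median 3.30) in ZT8 controls. In ZT8 knockouts 5 of 6 values lay well below that range, with a median of 1.97 and a lowest value of 1.87, and replicate 3 was at 3.39. At ZT12 the ranges were 3.81 to 4.73 (median 4.28) and 3.15 to 4.21 (median 3.64), and at ZT16 4.28 to 5.01 (median 4.67) and 4.05 to 4.65 (median 4.22). The gap between genotypes was thus widest at ZT8. Manf was at 44.7% of control at ZT8 (-1.16 ± 0.22, adjusted p = 8.47e-05). The call at ZT12 (-0.57 ± 0.22, adjusted p = 0.0343) was lost without control ZT12 replicate 1, 4, 5 or 6 or knockout ZT12 replicate 1, 2 or 4 (adjusted p = 0.0517 to 0.115) and under 4 of the other settings. At ZT16 the ratio was -0.39 ± 0.22 (adjusted p = 0.151).

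Creld2, a secreted disulfide isomerase-like protein, ran from 3.80 to 4.83 (median 4.13) in ZT8 controls and from 3.06 to 4.20 (median 3.33) in ZT8 knockouts. At ZT12 its ranges were 4.84 to 6.38 (median 5.54) and 3.99 to 5.62 (median 4.55), and at ZT16 5.96 to 7.05 (median 6.41) and 5.33 to 6.37 (median 5.68). Controls and knockouts overlapped at each time, and in each knockout group the highest mouse was the one that stood apart. Creld2 was at 58.1% of control at ZT8 (-0.78 ± 0.27, adjusted p = 0.0213; 0.0777 without control ZT8 replicate 4) and at 52.8% at ZT12 (-0.92 ± 0.27, adjusted p = 0.00604). At ZT16 the ratio was -0.64 ± 0.27 (adjusted p = 0.0547), and -0.77 without knockout replicate 5 (adjusted p = 0.0255).

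The arrays were washed in 3 batches, and wash batch was a term of the fit. The third batch held a single ZT12 knockout, replicate 6, and 2 ZT12 controls, replicates 2 and 6. Several of these genes were not lower in that knockout than in the mean of those controls. For Sdf2l1, Manf, Creld2 and Derl3 that knockout was the highest of its group and control replicate 2 the lowest of its group. The difference within this batch was 0.29 for Sdf2l1, 0.14 for Manf, 0.44 for Creld2, 0.09 for Pdia4 and 0.76 for Derl3. Without that knockout the ZT12 ratios were -1.47 for Sdf2l1 and -2.89 for Derl3, and no call at ZT12 changed. In the other 2 batches Sdf2l1 was at -1.55 and -1.70, Manf at -0.83 and -0.72, and Creld2 at -1.33 and -1.28. All 22 genes called at ZT8, 21 of 26 at ZT12 and 16 of 18 at ZT16 had the same sign in all 3 batches.

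Dnajb11, a J-domain co-chaperone of BiP, was lower at all 3 times (-0.51 ± 0.13, -0.68 ± 0.13 and -0.33 ± 0.13), although its ZT16 call (adjusted p = 0.0406) was lost under 6 of the other settings. It was also lost without control ZT16 replicate 1, 2, 3 or 4 or knockout ZT16 replicate 1, 2, 3 or 6 (adjusted p = 0.0529 to 0.095). A dimmer probe of Dnajb11 was lower at all 3 times (-0.46, -0.80 and -0.39). Its dimmest probe was at -0.34, 0.16 and 0.64, none called. Hsp90b1, the ER's Hsp90 (GRP94), was lower at ZT12 only (-0.38 ± 0.09, adjusted p = 0.000704). Hyou1, the nucleotide exchange factor of BiP, was lower at ZT12 (-0.64 ± 0.16, adjusted p = 0.00222; 0.0556 with its probes averaged) and was at -0.07 ± 0.16 at ZT16. At ZT8 Hyou1 was at -0.41 ± 0.16, not called, and at -0.48 without knockout ZT8 replicate 3 (adjusted p = 0.0255). Dnajc3, a co-chaperone that also inhibits PERK, was lower at ZT16 (-0.37 ± 0.11, adjusted p = 0.00823). Dnajb9, another J-domain protein, was called at no time, with ratios of -0.10, 0.36 and 0.05.

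Hspa13, an Hsp70 relative of the ER membrane, was lower at ZT8 alone. Its values ran from 1.1 to 1.73 (median 1.33) in ZT8 controls and from 0.26 to 1.45 (median 0.49) in ZT8 knockouts. At ZT12 the ranges were 1.53 to 2.00 (median 1.78) and 1.40 to 2.16 (median 1.75), and at ZT16 1.47 to 2.01 (median 1.81) and 1.23 to 2.68 (median 1.87). The 2 genotypes overlapped widely at ZT12 and ZT16, and at ZT8 through knockout replicate 3. The ratio was -0.75 ± 0.19 at ZT8 (adjusted p = 0.00306), 0.00 ± 0.19 at ZT12 and 0.13 ± 0.19 at ZT16, and the ZT8 call was lost when all probes of the gene were averaged (adjusted p = 0.106).

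**Figure D2:**
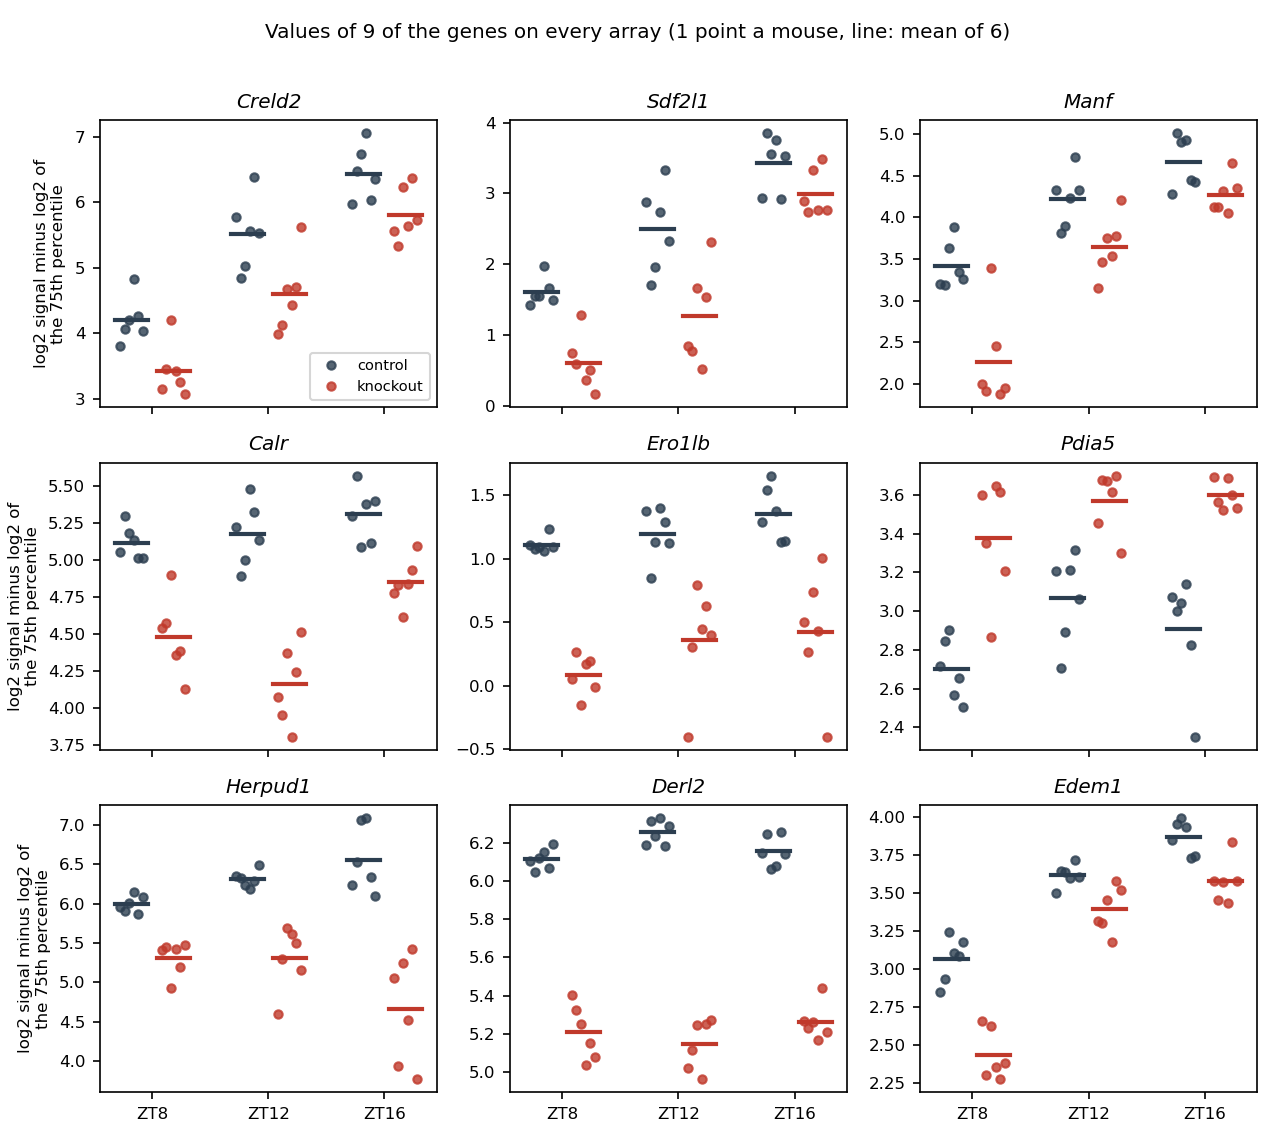
Log2 signal relative to the array's 75th percentile (vertical axis) of 9 genes on all 36 arrays, with 1 point for each mouse, control in dark grey and knockout in red at ZT8, ZT12 and ZT16, and a line at the mean of 6 mice; the vertical axes differ between genes and do not start at 0. Knockout mice lie below all controls at each time for Ero1lb, Herpud1 and Derl2, and above all controls at ZT16 for Pdia5.

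The lectin chaperones bind the sugars of newly made glycoproteins. Calr (calreticulin), the soluble one, was lower at all 3 times. Its control values ran from 5.02 to 5.30 (median 5.10) at ZT8, 4.89 to 5.48 (median 5.18) at ZT12 and 5.09 to 5.57 (median 5.34) at ZT16. In knockouts they ran from 4.13 to 4.90 (median 4.46), 3.80 to 4.51 (median 4.16) and 4.62 to 5.10 (median 4.84). The groups did not overlap at ZT8 or ZT12 and overlapped slightly at ZT16. Calr was at 63.9% of control at ZT8 (-0.65 ± 0.11, adjusted p = 4.7e-05). It stood at 49.6% at ZT12 (-1.01 ± 0.11, adjusted p = 2.79e-08), and the ZT16 level was 71.6% (-0.48 ± 0.11, adjusted p = 0.00119).

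Canx (calnexin), the membrane-bound lectin, differed by less. Controls ran from 5.55 to 5.66 (median 5.63) at ZT8, 5.50 to 5.78 (median 5.72) at ZT12 and 5.56 to 5.96 (median 5.80) at ZT16. Knockout values ran from 5.23 to 5.49 (median 5.44), 5.38 to 5.65 (median 5.50) and 5.25 to 5.73 (median 5.55). There was no overlap at ZT8, although only ZT16 passed the test (-0.25 ± 0.07, adjusted p = 0.00619), and in the first wash batch the ZT16 difference was 0.03. The ZT8 ratio was -0.18 ± 0.07 (adjusted p = 0.0556), which passed under 7 of 12 other settings, and the ZT12 ratio was -0.17 ± 0.07, which passed under 3. A second, dimmer probe of Canx was lower at all 3 times (-0.36, -0.49 and -0.32), with p-values adjusted over all probes of 8.6e-05, 5.71e-07 and 0.000275.

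Of the 7 disulfide isomerases and oxidases, 4, 5 and 5 were lower at ZT8, ZT12 and ZT16, and 1 was higher at each time. Ero1lb (ERO1-beta), the oxidase that recharges disulfide isomerases and is known mainly from insulin-producing and other secretory cells, was lower at all 3 times. In controls it ran from 1.06 to 1.23 (median 1.09) at ZT8, 0.85 to 1.40 (median 1.21) at ZT12 and 1.13 to 1.66 (median 1.33) at ZT16. In knockouts they ran from -0.15 to 0.26 (median 0.11), -0.40 to 0.79 (median 0.42) and -0.40 to 1.01 (median 0.47). The genotypes did not overlap at any time. The knockout was at 50.1%, 54.9% and 52.4% of control (-0.996 ± 0.17, -0.86 ± 0.17 and -0.93 ± 0.17, adjusted p = 1.96e-05, 0.0001 and 4.16e-05). Its paralogue Ero1l (ERO1-alpha) was called at no time, with ratios of -0.04, -0.10 and -0.16, and with -0.20 at ZT16 without knockout replicate 5 (adjusted p = 0.0237).

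Pdia3 (ERp57), which works with calnexin and calreticulin on glycoproteins, was also lower throughout. Its values ran from 3.42 to 3.74 (median 3.57) in ZT8 controls and 2.77 to 3.50 (median 3.13) in ZT8 knockouts. At ZT12 they ran from 3.73 to 4.28 (median 4.02) and 3.04 to 3.53 (median 3.28), and at ZT16 from 3.95 to 4.32 (median 4.18) and 3.46 to 3.85 (median 3.63). The genotypes overlapped at ZT8 only. The ratios were -0.39 ± 0.09 (adjusted p = 0.000765), -0.78 ± 0.09 (adjusted p = 1.95e-08) and -0.59 ± 0.09 (adjusted p = 2.87e-06).

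Pdia5, a less studied isomerase known to act on the disulfides of ATF6, went the other way. Control values ran from 2.51 to 2.90 (median 2.69) at ZT8, 2.71 to 3.31 (median 3.13) at ZT12 and 2.35 to 3.14 (median 3.02) at ZT16. The knockout ranges were 2.86 to 3.64 (median 3.47), 3.30 to 3.70 (median 3.64) and 3.52 to 3.69 (median 3.58). At ZT16 every knockout lay above every control, and at ZT8 and ZT12 the ranges touched by 1 mouse, knockout replicates 3 and 6. Pdia5 was at 162.8% of control at ZT8 (0.70 ± 0.12, adjusted p = 3.32e-05). It stood at 139.6% at ZT12 (0.48 ± 0.12, adjusted p = 0.00196), and the ZT16 level was 162.8% (0.70 ± 0.12, adjusted p = 2.85e-05). Within the 3 wash batches its differences ran from 0.36 to 0.95, 0.35 to 0.56 and 0.59 to 1.18.

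The remaining isomerases were lower. Pdia6 was at 63.6%, 64.1% and 76.6% of control and did not overlap at any time. P4hb, the founding member of the family, was lower at all 3 times (-0.22 ± 0.08, -0.41 ± 0.08 and -0.38 ± 0.08). Its ZT8 call (adjusted p = 0.0249) was lost without control ZT8 replicate 3, 5 or 6 or knockout ZT8 replicate 3, 5 or 6 (adjusted p = 0.0522 to 0.0715). With the probes of P4hb averaged, none of the 3 times passed (adjusted p = 0.439, 0.0572 and 0.108). Pdia4 (ERp72) was lower at ZT12 (-0.54 ± 0.11) and ZT16 (-0.31 ± 0.11, adjusted p = 0.0264), and not at ZT8 (-0.21 ± 0.11, adjusted p = 0.144). The ZT16 call of Pdia4 was lost without control ZT16 replicate 2 or 3 or knockout ZT16 replicate 2, 3 or 4 (adjusted p = 0.0513 to 0.0706).

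ER-associated degradation, which recognises misfolded proteins, moves them through the membrane and marks them with ubiquitin, held the largest single differences. Of its 9 genes 6, 7 and 6 were lower at ZT8, ZT12 and ZT16, and none was higher. Derl2, a membrane protein of the retrotranslocation channel, had the smallest p of all 38 genes at each time. Its control values ran from 6.05 to 6.19 (median 6.11) at ZT8, 6.18 to 6.33 (median 6.26) at ZT12 and 6.06 to 6.25 (median 6.14) at ZT16. Those of knockouts ran from 5.04 to 5.40 (median 5.2), 4.96 to 5.27 (median 5.18) and 5.16 to 5.44 (median 5.25). The ranges were narrow and lay far apart at all 3 times. The knockout was at 53.1%, 46.5% and 54.0% of control (-0.91 ± 0.07, -1.11 ± 0.07 and -0.89 ± 0.07, adjusted p = 5.74e-12, 6.29e-14 and 6.03e-12), with differences from -0.77 to -1.0, -1.03 to -1.12 and -0.75 to -0.995 within the wash batches.

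Herpud1, a membrane protein that gathers the ubiquitin ligase complex and is itself a target of the unfolded protein response, was lower in the knockout at each time, by more at the later times. Controls ran from 5.86 to 6.15 (median 5.98) at ZT8, 6.18 to 6.49 (median 6.31) at ZT12 and 6.09 to 7.08 (median 6.43) at ZT16. Knockout values ran from 4.92 to 5.47 (median 5.41), 4.60 to 5.69 (median 5.40) and 3.77 to 5.42 (median 4.79). No knockout reached the control range at any time, and the ZT16 knockouts spread widely. Herpud1 was at 63.2% of control at ZT8 (-0.66 ± 0.21, adjusted p = 0.0156). It stood at 49.2% at ZT12 (-1.02 ± 0.21, adjusted p = 0.000273), and the ZT16 level was 27.3% (-1.87 ± 0.21, adjusted p = 3.11e-08). Without knockout ZT16 replicate 5, its highest knockout, the ZT16 ratio was -2.01. A separate probe of Herpud1 gave -0.83, -1.10 and -2.09.

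Derl3, a relative of Derl2 known from secretory cells, had the widest spread of all. In controls it ran from -1.43 to 0.30 (median -0.28) at ZT8, -1.39 to 2.10 (median 0.84) at ZT12 and -0.44 to 1.92 (median 1.14) at ZT16. In knockouts they ran from -1.93 to -0.87 (median -1.62), -3.11 to 0.51 (median -2.34) and -0.69 to 1.1 (median 0.53). The genotypes overlapped at every time. The ZT12 ratio of -2.29 ± 0.54 passed (adjusted p = 0.000975), while those at ZT8 (-1.19 ± 0.54, adjusted p = 0.0836) and ZT16 (-0.50 ± 0.54, adjusted p = 0.482) did not.

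Sel1l, the adaptor of the ligase HRD1, was at 65.3%, 56% and 61.5% of control and did not overlap at any time. Syvn1, which encodes HRD1, was lower at ZT8 (-0.52 ± 0.15, adjusted p = 0.00721), with ratios of -0.24 at ZT12 and -0.34 at ZT16 that did not pass. Without knockout ZT16 replicate 5 Syvn1 was called at ZT16 (-0.41, adjusted p = 0.0363). Edem2, an enzyme that trims the mannoses of misfolded glycoproteins, was lower at ZT8 (-0.47 ± 0.10) and ZT12 (-0.44 ± 0.10). Edem3, its relative, was called at ZT16 alone (-0.39 ± 0.13, adjusted p = 0.0191), a call lost when its probes were averaged (adjusted p = 0.701) and without control ZT16 replicate 3 or knockout ZT16 replicate 2 or 4 (adjusted p = 0.0569 to 0.0725). In the first wash batch the ZT16 difference of Edem3 was 0.09. Derl1 was lower at ZT12 (-0.42 ± 0.08, adjusted p = 4.8e-05) and ZT16 (-0.21 ± 0.08, adjusted p = 0.0288). Neither passed with its probes averaged (adjusted p = 0.428 and 0.865), and the ZT16 call was lost without control ZT16 replicate 3, 4 or 5 or knockout ZT16 replicate 4 or 6 (adjusted p = 0.053 to 0.0884).

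Edem1, which delivers misfolded glycoproteins to degradation, differed most at ZT8. Control values ran from 2.85 to 3.24 (median 3.09) at ZT8, 3.50 to 3.71 (median 3.62) at ZT12 and 3.73 to 3.99 (median 3.89) at ZT16. The knockout ranges were 2.27 to 2.66 (median 2.37), 3.18 to 3.58 (median 3.38) and 3.44 to 3.84 (median 3.57). The genotypes were apart at ZT8 and overlapped at ZT12 and ZT16. The ratios were -0.63 ± 0.08 (adjusted p = 6.13e-07), -0.23 ± 0.08 (adjusted p = 0.031) and -0.28 ± 0.08 (adjusted p = 0.00777). The ZT12 call was lost under 4 of the other settings, and without control ZT12 replicate 5 or knockout ZT12 replicate 1, 2 or 4 (adjusted p = 0.0579 to 0.0904). The ZT16 call was lost with quantile normalization and in the authors' table (adjusted p of up to 0.39).

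The sensors and transcription factors did not share the lower levels. None of these 5 genes was lower at any time. Creb3l2, an ER-anchored factor related to ATF6, was higher at ZT12 and ZT16. Its control values ran from 2.38 to 2.68 (median 2.55) at ZT8, 1.93 to 2.67 (median 2.12) at ZT12 and 1.87 to 2.67 (median 2.50) at ZT16. Those of knockouts ran from 2.12 to 3.27 (median 2.80), 2.50 to 3.11 (median 2.84) and 2.48 to 3.09 (median 2.99). The genotypes overlapped at all 3 times. The ratios were 0.21 ± 0.16, 0.63 ± 0.16 (adjusted p = 0.00176) and 0.52 ± 0.16 (adjusted p = 0.00889), so that the knockout was at 154.6% of control at ZT12 and 143.3% at ZT16.

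Ern1, which encodes the sensor IRE1, was higher at ZT12. Control values ran from 2.82 to 3.21 (median 3.00), 2.53 to 2.87 (median 2.76) and 2.52 to 2.95 (median 2.87) at ZT8, ZT12 and ZT16. Knockout values ran from 2.78 to 3.48 (median 3.18), 2.6 to 3.74 (median 3.17) and 2.56 to 3.49 (median 3.08). The ranges overlapped at each time. The ZT12 ratio was 0.42 ± 0.14 (adjusted p = 0.0158, and 0.0574 without knockout ZT12 replicate 4), and those at ZT8 and ZT16 were 0.18 ± 0.14 and 0.26 ± 0.14. A second probe of Ern1 was higher at all 3 times (0.44, 0.57 and 0.44, p adjusted over all probes 0.0366, 0.00576 and 0.0318), and 3 dimmer probes were not called.

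Xbp1, Atf6 and Eif2ak3 were called at no time. Xbp1 ratios were -0.08 ± 0.13, 0.13 ± 0.13 and -0.12 ± 0.13, and the probe was not assigned to the spliced or unspliced form. Atf6 ratios were -0.04 ± 0.10, 0.10 ± 0.10 and 0.04 ± 0.10, and its dimmer probe was higher at ZT12 (0.51, p adjusted over all probes 0.029). For Eif2ak3 the probes disagreed: the brightest gave -0.33, 0.10 and 0.10, none called, while the dimmer one gave -0.31, -0.56 (adjusted p = 0.00111) and -0.44 (adjusted p = 0.00924).

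Among the 5 genes of translocation and ER export 4, 3 and 1 were lower at ZT8, ZT12 and ZT16. Ssr2, a subunit of the translocon-associated TRAP complex, ran from 5.39 to 5.61 (median 5.50) in ZT8 controls and 4.56 to 5.10 (median 4.84) in ZT8 knockouts, with no overlap. At ZT12 the ranges were 5.59 to 5.83 (median 5.75) and 5.09 to 5.60 (median 5.37), and at ZT16 5.66 to 5.91 (median 5.74) and 5.44 to 5.83 (median 5.50). The genotypes overlapped at ZT12 and ZT16, the first time by 1 mouse. Ssr2 was at 62.4% of control at ZT8 (-0.68 ± 0.08, adjusted p = 2e-07). It stood at 76.9% at ZT12 (-0.38 ± 0.08, adjusted p = 0.000587), and the ZT16 level was 85.7% (-0.22 ± 0.08, adjusted p = 0.0355). The ZT16 call of Ssr2 was lost under 5 of the other settings, and without control ZT16 replicate 2, 4 or 5 or knockout ZT16 replicate 1, 2, 3, 4 or 6 (adjusted p = 0.051 to 0.0849).

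Ssr3, another TRAP subunit, had control values from 4.58 to 4.82 (median 4.65), 4.84 to 5.09 (median 4.99) and 4.53 to 5.05 (median 4.94) at the 3 times. Its knockout values ran from 4.30 to 4.60 (median 4.40), 4.37 to 4.76 (median 4.64) and 4.55 to 4.99 (median 4.65), clear of the controls at ZT12 only. The ratios were -0.25 ± 0.08 (adjusted p = 0.0173), -0.39 ± 0.08 (adjusted p = 0.00027) and -0.19 ± 0.08 (adjusted p = 0.0583; -0.25 and 0.0153 without knockout ZT16 replicate 5). Sec24d, which selects cargo in the COPII coat of export vesicles, ran from 1.46 to 2.07 (median 1.55) in ZT8 controls and 0.38 to 1.44 (median 0.82) in ZT8 knockouts. Sec24d was clear of the controls at ZT8, at 58.9% of control (-0.76 ± 0.15, adjusted p = 0.000223). At ZT12 its ranges were 1.73 to 2.27 (median 1.95) and 1.48 to 1.97 (median 1.73), and at ZT16 1.88 to 2.34 (median 1.98) and 1.26 to 2.25 (median 1.65), with ratios of -0.24 and -0.33 that did not pass. Without knockout ZT16 replicate 5 Sec24d was called at ZT16 (-0.44, adjusted p = 0.0207).

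Of the translocon pore itself, Sec61b was lower at ZT8 (-0.25 ± 0.06, adjusted p = 0.00233) and ZT12 (-0.28 ± 0.06, adjusted p = 0.000628). Its partner Sec61a1 was called at no time, with ratios of -0.05, -0.03 and 0.19. A dimmer probe of Sec61a1 was at 0.27, 0.23 and 0.31, called higher at ZT16 only (p adjusted over all probes 0.0295). The dimmest was at -0.11, 0.23 and 0.19, none called.

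Many of the genes rose from the light into the dark phase. In controls 20 of 38 rose and none fell from ZT8 to ZT16, where 13.4% of all genes rose, and 19 rose from ZT8 to ZT12 (7.67% of all genes) and 3 from ZT12 to ZT16 (1.66%). In knockouts 25 rose from ZT8 to ZT16 (15.5% of all genes) and Herpud1 alone fell (13.4% of all genes fell). From ZT8 to ZT12 14 rose in knockouts (6.73%), and from ZT12 to ZT16 15 rose (7.06%) and Herpud1 fell (5.52%). The median change from ZT8 to ZT16 was 0.37 in controls and 0.45 in knockouts, against 0.04 and 0.01 over all genes. In both genotypes 19 genes rose from ZT8 to ZT16. The share of all genes that rose in both was not taken, so that count describes the list only. These counts rest on the brightest probe of each gene. The fall of Herpud1 in knockouts did not pass on its dimmer probe. The dimmest probe of Dnajb11 fell from ZT8 to ZT16, at -4.45 in controls and -3.47 in knockouts (p adjusted over all probes 3.26e-13 and 9.25e-11). Another dimmer probe of Dnajb11 rose with the brightest, by 0.72 and 0.80.

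Creld2 and Sdf2l1 had the largest rises from ZT8 to ZT16. Creld2 rose by 2.25 ± 0.27 in controls, or 4.76-fold (adjusted p = 1.27e-07), and by 2.39 ± 0.27 in knockouts, or 5.26-fold (adjusted p = 4.37e-08). Sdf2l1 rose 3.58-fold in controls (1.84 ± 0.26) and 5.27-fold in knockouts (2.40 ± 0.26), and Manf 2.37-fold (1.24 ± 0.22) and 4.04-fold (2.02 ± 0.22). The array values above show that by ZT16 the knockouts of these 3 genes lay above the ZT8 controls, while staying below the ZT16 controls on average. Derl3 rose in knockouts (1.98 ± 0.54, adjusted p = 0.00504), and in controls its change of 1.29 ± 0.54 did not pass (adjusted p = 0.0746).

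By role, and with no test between roles, the counts were as follows. Of the chaperones, 8 of 10 rose from ZT8 to ZT16 in controls and 9 of 10 in knockouts, Hspa5 by 2.09-fold and 2.58-fold. Of the degradation genes, 5 of 9 rose in each genotype, among them Syvn1 (2.26-fold and 2.57-fold), while Derl2 changed by 0.04 and 0.06 and was not called. Of the isomerases and oxidases 4 of 7 rose in controls and 5 in knockouts, and of the translocation and export genes 3 of 5 and 5 of 5. None of the 5 sensors and transcription factors was called in any comparison of times in either genotype. From ZT8 to ZT16, 3 of 5 B and plasma cell markers fell in controls, while 1 of 5 rose in knockouts, as did 5 of 5 red cell and 3 of 6 endothelial markers. Of all 22919 genes, 3026 fell in controls and 15.5% rose in knockouts. The part of these cells in the changes over time was not tested.

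**Figure D3:**
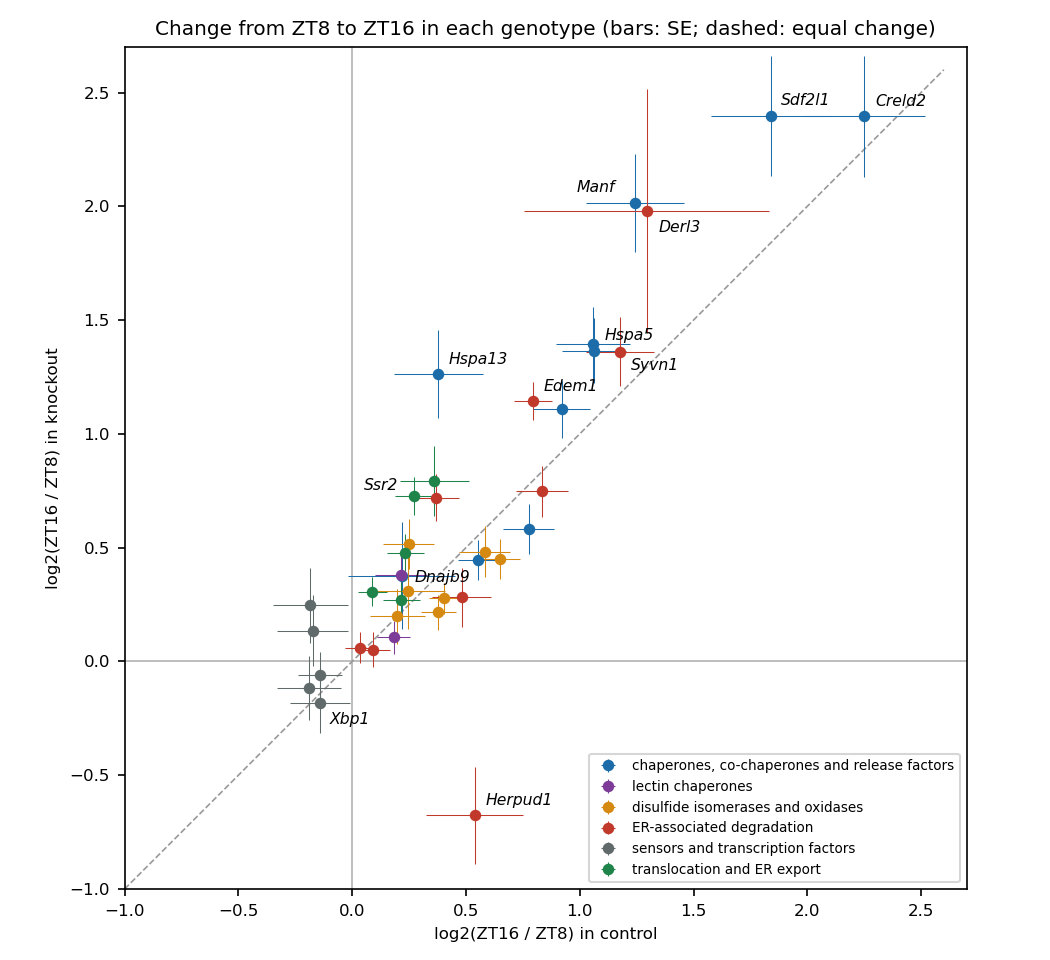
Change from ZT8 to ZT16 as a log2 ratio in control (horizontal axis) and in knockout (vertical axis) for the 38 genes, coloured by role, with bars for the SE of the fit and a dashed line of equal change. Creld2 and Sdf2l1 lie at the upper right, the 5 sensors and transcription factors lie around 0, and Herpud1 is the gene far below the line.

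For 3 genes the genotype effect differed between the times by the F test over both interaction terms, where 8.46% of all genes did. They were Herpud1 (adjusted p = 0.0222), Ssr2 (0.0337) and Edem1 (0.0462). Between ZT8 and ZT16 the genotype effect became more negative for Herpud1, by -1.21 (adjusted p = 0.00825), and less negative for Ssr2, by 0.46 (adjusted p = 0.0122). For Hspa13 it moved by 0.88 (adjusted p = 0.0371), from -0.75 at ZT8 to 0.13 at ZT16, which was not called. These 3 genes were near the share of all genes called in either direction, 9.74%. In the underlying changes Herpud1 went up by 0.54 ± 0.21 from ZT8 to ZT16 in controls (adjusted p = 0.0607) and fell by 0.67 in knockouts (adjusted p = 0.0158). The calls differed on its dimmer probe, at 0.70 in controls (p adjusted over all probes 0.0232) and -0.56 in knockouts (0.0672). The F test of Herpud1 held with 34 of 36 single arrays left out, and its adjusted p was 0.0502 without control ZT16 replicate 3 and 0.0625 without knockout ZT16 replicate 2. That of Ssr2 held in 25 of 36 and that of Edem1 in 12 of 36 (adjusted p of up to 0.121 for Edem1), and without knockout ZT8 replicate 3 the count was 7 genes, with Hspa13, Manf, Calr and Sec24d added.

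Set against the promoters, the 12 genes with an ERSE or ERSE-II had median ratios of -0.65, -0.66 and -0.38 at ZT8, ZT12 and ZT16, with 8, 9 and 7 lower and none higher. The 19 searched genes with neither had medians of -0.25, -0.24 and -0.19, with 10, 10 and 7 lower and 1, 3 and 2 higher. Elements were held both by genes with clear differences, such as Calr, Pdia6, Ero1lb and Herpud1, and by genes called at 1 time only. Among the latter, Dnajc3 was called at ZT16. Hsp90b1, with 2 ERSE, was called at ZT12, with ratios of -0.09, -0.38 and -0.20. The stretches of all of these but Hsp90b1 are printed above. Of the 37 other genes whose promoter holds an ERSE or ERSE-II, 19 were tested, and their medians were -0.03, -0.01 and 0.04, with 4, 5 and 2 lower and 0, 3 and 2 higher. The 12 and the 19 genes differ in role as well as in promoter, and no test was made between them.

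Other genes of the secretory pathway were grouped in lists, and their counts stand beside the 18.7%, 22.7% and 20% of all genes that were lower at ZT8, ZT12 and ZT16 and the 16.7%, 19.6% and 19.9% that were higher. Among 20 other genes of the translocon and signal peptidase 13, 12 and 5 were lower and 0, 1 and 2 higher at the 3 times, with Sec11c, a signal peptidase subunit, at -0.45, -0.80 and -0.62. Among 19 tested COPII export genes 13, 11 and 11 were lower and 1, 1 and 0 higher, and Sar1b, the GTPase that starts the coat, was at -0.67, -0.99 and -1.34. Among 23 tested other folding enzymes of the ER 10, 13 and 12 were lower and 1, 1 and 4 higher, with the peroxiredoxin Prdx4 at -1.05, -0.77 and -0.58 and the prolyl isomerase Ppib at -0.64, -0.76 and -0.56. Of 16 oligosaccharyltransferase and glucosidase genes 4, 8 and 3 were lower and 0, 0 and 2 higher, with the glycoprotein folding sensor Uggt1 at -0.32, -0.45 and -0.17. Of 20 tested other degradation genes 6, 5 and 3 were lower and 0, 1 and 1 higher, with the ATPase Vcp at -0.31, -0.43 and -0.08. The medians of these 5 lists lay between -0.39 and -0.05.

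In the PERK and ATF4 arm of the response, 15 genes were tested, of which 2, 4 and 5 were higher and 0, 1 and 2 lower at ZT8, ZT12 and ZT16. Trib3, a pseudokinase induced by ATF4, was at 0.11, 1.87 and 2.29, and Ppp1r15a (GADD34), which reverses the phosphorylation by PERK, at 0.71, 0.88 and 0.46. Of 18 other sensors and regulators 7, 6 and 5 were lower and 1, 0 and 1 higher, with Creb3l3, a liver factor cleaved like ATF6, at -0.43, -0.97 and -0.89. The higher gene was Creb3l4, named after its values were seen, at 2.01 at ZT8 and 2.04 at ZT16. Of 24 cytosolic chaperones 1, 9 and 15 were lower and 6, 1 and 2 higher, and Hspa8 was at 0.61, -0.03 and -0.37.

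**Figure D4:**
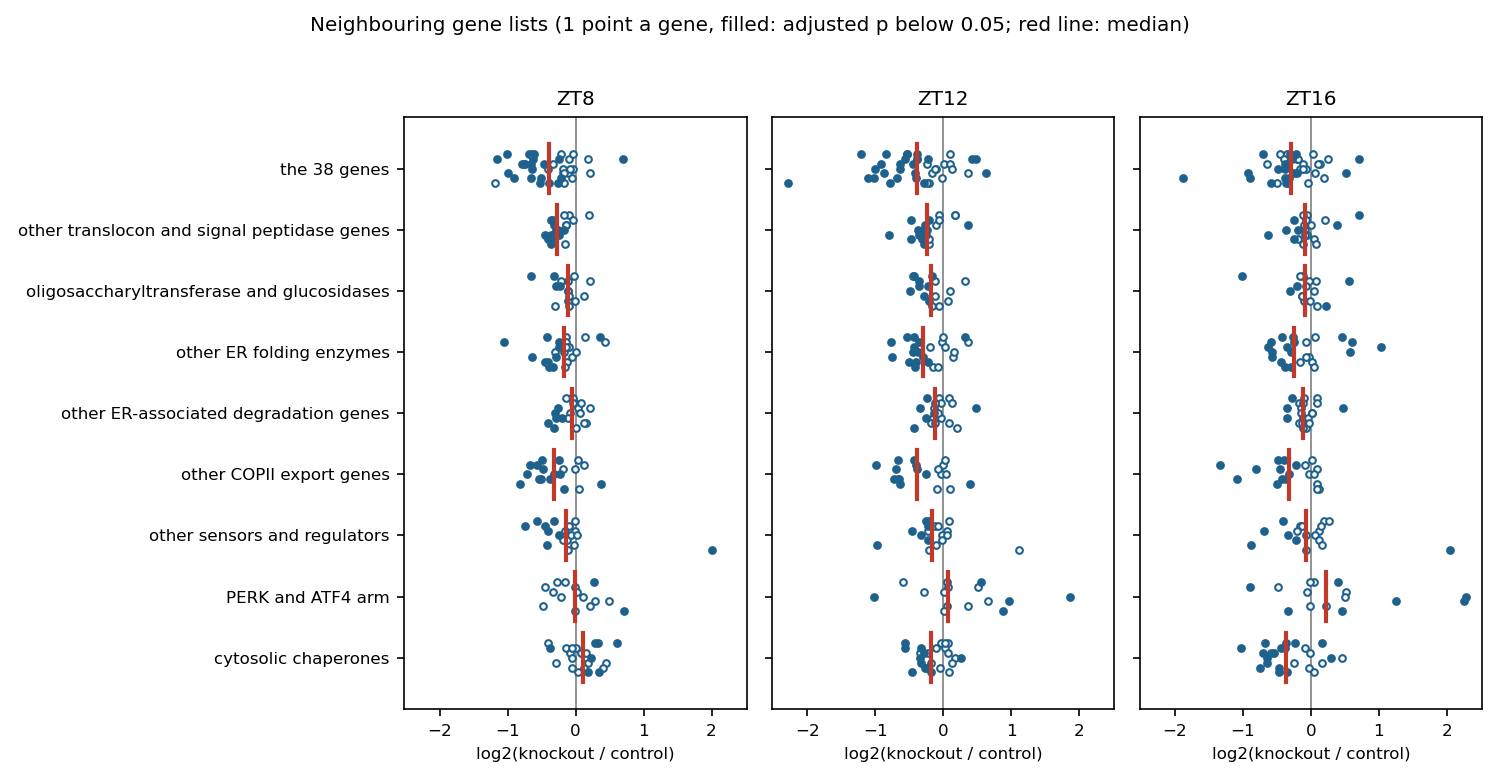
Log2 ratio of knockout over control (horizontal axis) at ZT8, ZT12 and ZT16 for the 38 genes and 8 other lists, with 1 point for each gene, filled where the adjusted p was under 0.05, and a red line at the median. The median of the cytosolic chaperones lies right of 0 at ZT8 (0.11) and left of it at ZT12 (-0.19) and ZT16 (-0.37), while that of the 38 genes lies left of 0 at all 3 times.

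Mice of a group differed together in these genes. Control ZT12 replicate 2 had the lowest value of its group for 22 of the 38 genes (57.9%, against 21.7% of all genes), and control ZT12 replicate 5 the highest for 17 (44.7%, against 15.5%). The mean level of the 38 genes on an array ran from 3.35 to 3.58 in ZT8 controls and 2.90 to 3.22 in ZT8 knockouts, with no overlap. At ZT12 it ran from 3.50 to 4.01 in controls and 3.14 to 3.57 in knockouts, and at ZT16 from 3.81 to 4.12 and 3.51 to 4.04. Knockout ZT16 replicate 5, at 4.04, was the array that lay within the upper part of the control range.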

How the data were processed

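Per the labels' protocols, 200 ng of total liver RNA was labelled with Cy3 and measured on Agilent SurePrint G3 Mouse arrays, and per the file headers spots were read with Agilent Feature Extraction 10.10.1.1. The deposited scanner files give each spot's intensity as the processed signal, which the authors' software had background-subtracted and detrended, with mean and local background intensity and flag columns (other than measurements) beside it. The authors' deposited table holds log2 values with the same median in every array, and was used as an alternative.

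Control spots were left out, and log2 of the processed signal minus the array's 75th percentile was used. Probes well above background on at least 6 of 36 arrays were kept (34681, after 93 with a missing value were dropped), and the brightest stood for each of 22919 genes. limma 3.58.1 (R 4.3.3; lmFit and eBayes) fitted 6 groups and wash batch as a fixed term to all 36 arrays, with 28 residual degrees of freedom, and p-values were adjusted by Benjamini-Hochberg over all genes. Calls were made at 0.05. The steps were tested on simulated data. Replicates are mice per the labels. The 38 genes, the lists and the tests were chosen with earlier results of these data known. All 38 genes may be named with their ratios. Array values were given for up to 3 called genes of each role with the largest mean absolute genotype ratio, up to 4 with the smallest F test p and the 3 with the largest change from ZT8 to ZT16, with Hspa5 added, and other lists name up to 3 genes with the smallest p. Promoters came from RefSeq (GRCm38.p6), and no protein sequence was used here. The alternatives were normexp background correction, quantile normalization, the authors' table, no filter or all 36 arrays required, other treatments of batch and slide, the replicate block, only the groups compared, array weights, the mean of all probes, and each array left out in turn. The number of arrays limits the precision.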

Additional observations from a re-analysis of the deposited data

Results flagged for a closer look

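In 12 of 228 groups of 6 mice the highest or lowest array lay farther from the others than Dixon's 95% limit, where chance alone gives about 1 in 20 groups, or 11.4. In knockouts at ZT8 these were replicate 3 for Dnajc3 (2.12, others 2.29 to 2.39) and Creld2 (4.20, others 3.06 to 3.45), and replicate 4 for Canx (5.23, others 5.41 to 5.49). Knockout ZT12 replicate 6 stood apart for Pdia4 (2.69, others 1.95 to 2.21), and knockout ZT16 replicate 5 for Edem1 (3.84, others 3.44 to 3.58) and Ssr2 (5.83, others 5.44 to 5.53). In controls at ZT8 they were replicate 2 for Hsp90b1 (7.20, others 6.96 to 7.03), replicate 5 for Ero1lb (1.23, others 1.06 to 1.11) and replicate 3 for Ssr3 (4.82, others 4.58 to 4.67). Control ZT12 replicate 6 stood apart for Atf6 (2.31, others 1.68 to 1.89), and at ZT16 control replicate 6 for Ssr3 (4.53, others 4.88 to 5.05) and replicate 3 for Sec24d (2.34, others 1.88 to 2.04).

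The genotype effect differed between times by the F test for Herpud1 (adjusted p = 0.0222), Ssr2 (adjusted p = 0.0337) and Edem1 (adjusted p = 0.0462). From ZT8 to ZT16 the genotype effect moved by -1.21 for Herpud1, 0.46 for Ssr2 and 0.88 for Hspa13, all tested with limma. Of all genes 9.74% were called in this comparison, in either direction.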

How the results depend on the processing

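Of the genotype ratios of the 38 genes at 3 times under 12 other settings, 1262 kept their direction and side of the threshold, 49 gained a call, 44 lost one and 13 changed sign. With single arrays left out, these counts were 3981, 55, 48 and 20. The number of genes with a genotype effect that differed between times (3) was 1 with no filter, 7 with array weights and 1 with the mean of all probes, and 1 to 7 with an array left out. The 3 genes that rose from ZT12 to ZT16 in controls became 1 with no filter, 1 with slide as a fixed block and 0 by limma on only the groups compared (11 at an unadjusted p under 0.05), and 1 to 8 with an array left out (8 without control ZT12 replicate 5). The 14 that rose from ZT8 to ZT12 in knockouts became 6 with only the groups compared, a setting that gives no F test. Genotype counts ran from 21 to 23 at ZT8, 23 to 28 at ZT12 and 14 to 24 at ZT16 with an array left out.

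Signs changed as follows, for values that were not called. At ZT8 Ero1l was at 0.0011 with quantile normalization and 0.00818 in the authors' table. With the mean of all probes Edem3 was at 0.095 at ZT8 and 0.10 at ZT12, Atf6 at 0.028 at ZT8, Sec61a1 at 0.0356 at ZT8 and 0.14 at ZT12, Eif2ak3 at -0.23 at ZT12 and -0.17 at ZT16, and Dnajb9 at -0.0566 at ZT16. In the authors' table Sec61a1 was at 0.0901 at ZT12 and Sec61b at 0.0367 at ZT16, and with slide as a fixed block Hspa13 was at -0.0223 at ZT12. With an array left out, Ero1l ran from -0.0752 to 0.00197 at ZT8, Hspa13 from -0.0628 to 0.0746 at ZT12 and -0.024 to 0.25 at ZT16, and Sec61a1 from -0.0739 to 0.0132 at ZT12. At ZT16 Dnajb9 ran from -0.15 to 0.18, Atf6 from -0.0242 to 0.0814 and Eif2ak3 from -0.0157 to 0.19. The cause was not tested.

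Same-numbered arrays did not deviate together (90 pairs, correlations from -0.34 to 0.20, median -0.01), so the numbers were not taken as pairs. With the replicate block 23, 26 and 20 genes were called at ZT8, ZT12 and ZT16, and 4 by the F test.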
